A study of Mus musculus with 6 samples.

Results

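The cytosolic ribosomal protein genes were taken as every gene whose symbol is Rpl or Rps followed by a digit, or is Rplp0, Rplp1, Rplp2 or Rpsa, leaving out the Rps6k kinases, Rps19bp1 and the symbols that mark pseudogene copies with "-ps". They were 85 of the 21829 genes in the table. Sorted by symbol alone, 33 of these count as small subunit genes, 49 as large subunit genes and 3 as stalk genes. That sorting also takes in paralogs and copies such as Rpl7l1 and Rps27rt. All 33 small subunit genes, 46 large subunit genes and the 3 stalk genes had a mean of at least 1 FPKM (sequenced fragments divided by transcript length and by the size of the library) over all libraries and were tested. Rpl3l, Rpl10l and Rpl39l lay below that level.

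The ribosome joins a small subunit, which holds the messenger RNA and reads its codons, to a large subunit, which forms the peptide bonds. Its proteins are made in matched amounts from genes scattered over the genome, and many of their mRNAs begin with a run of pyrimidines, the 5′ terminal oligopyrimidine (TOP) tract, through which mTORC1 and LARP1 set how strongly they are translated. In fat, as in other tissues, these genes are among the most abundantly transcribed, and their mRNAs are short.

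RNA came from the epididymal pad of white fat. The mice were male C57BL/6J at 20 weeks on a normal diet. The libraries labelled ZFP251 KO are called KO 1, KO 2 and KO 3, and those of wild-type littermates WT 1, WT 2 and WT 3. The design text names the role of ZFP251, a zinc finger protein, in that tissue as the question. The labels give neither the targeted part of the gene nor whether each library is a separate mouse, so each p-value reflects how these libraries vary, which may be technical.

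Zfp251 itself had 6.48, 5.86 and 6.48 FPKM across KO 1 to KO 3, against 3.73, 3.56 and 2.95 FPKM across WT 1 to WT 3, a ratio of means of 1.84 (exact permutation test, two-sided, p = 0.1, the smallest that 3 libraries against 3 can give). The RNA of the targeted gene was thus not lower in the libraries labelled KO. With the targeted part of the gene not given, this level cannot check the labels. Every direction below is between libraries as labelled. The FPKM of all genes summed to between 426966 and 439354 in the libraries labelled KO and to between 468499 and 637902 in the WT libraries, the highest in WT 3. Total sequencing depth is unknown. Markers of adipocytes, 18 genes, summed to between 42863 and 52027.8 FPKM in the libraries labelled KO and to between 58636.1 and 101629 FPKM in the WT libraries, with none at 0. Cfd, Car3 and Fabp4 make up most of these sums. Markers of epithelium, 12 genes, summed to between 112 and 224 FPKM in the libraries labelled KO and to between 8.53 and 94.7 FPKM in the WT libraries, with 2 of the 12 at 0 in each of WT 2 and WT 3. The part of these markers in the results was not tested. In bulk tissue, fewer cells of a type and less RNA per cell cannot be told apart.

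The ribosomal protein genes differed little between the libraries labelled KO and WT 1 and WT 2, and were raised together in WT 3. The median member stood at 345, 325 and 328 FPKM across KO 1 to KO 3, against 343, 350 and 598 FPKM across WT 1 to WT 3. The FPKM of all members summed to 31524.8, 30373 and 29537.4 across KO 1 to KO 3, against 31057, 31168.4 and 58799.1 across WT 1 to WT 3. As a share of all FPKM this was 7.38%, 7.08% and 6.72% across KO 1 to KO 3, against 6.58%, 6.65% and 9.22% across WT 1 to WT 3. The sums of KO 2 and KO 3 lay below all 3 WT sums and that of KO 1 lay above WT 1 and WT 2, whereas all 3 shares labelled KO lay above WT 1 and WT 2 and below WT 3. The summed large subunit genes stood to the summed small subunit genes at 1.06, 1.06 and 1.09 across KO 1 to KO 3, against 1.08, 1.09 and 1.03 across WT 1 to WT 3.

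**Figure D1:**
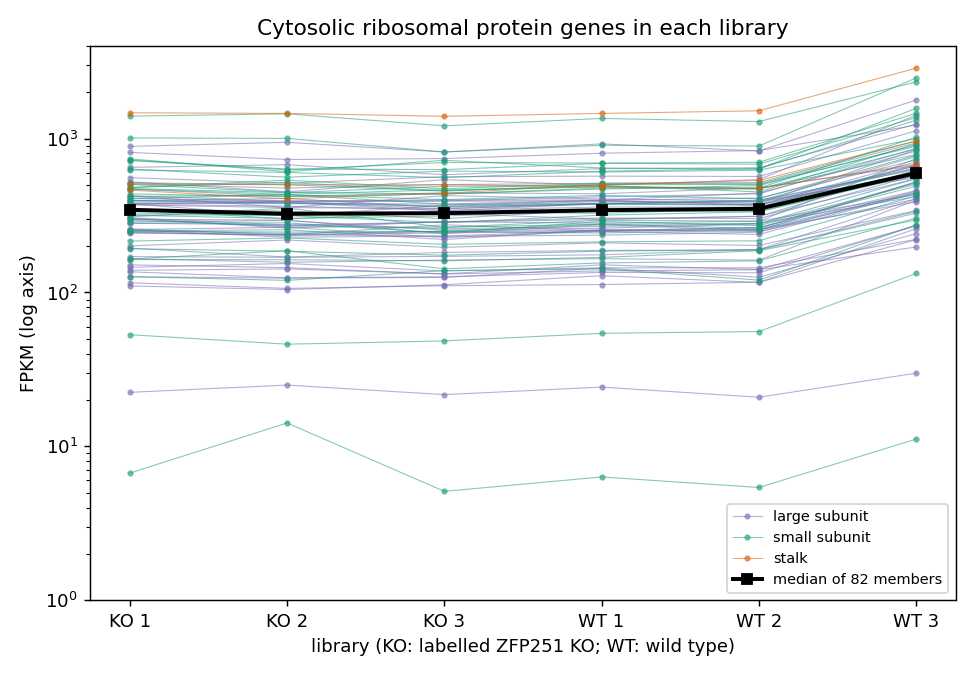
FPKM (log axis) of each of the 82 tested members in the 3 libraries labelled KO and the 3 WT libraries, coloured by subunit, with the median of the members in black. The median lies between 325 and 350 FPKM in 5 libraries and at 598 FPKM in WT 3, and the lowest line, Rps27rt, has its highest point in KO 2.

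With all 6 libraries, no member passed an adjusted p under 0.05 in the limma fit of log2(FPKM + 1), where 0% of the 12539 genes tested passed. None had an unadjusted p under 0.05 either, against a background of 13.6% of genes tested, 4.43% lower and 9.13% higher in the libraries labelled KO. The median standard error in this fit was 0.262 over the members and 0.161 over all genes tested. The 95% interval lay within 0.5 of 0 for 1 member, 1.22%, against 40.3% of genes tested. The lack of small p-values in this fit therefore does not show that the members were unchanged. The fitted difference, KO minus WT, was below 0 for 81 of 82 members, against 59.2% of genes tested, for 62 with equal library totals, against 19.8%, and for 48 with quantile normalization, against 59.6%. Its median was −0.33 over the members and −0.05 over all genes tested, and it ran from −0.58 for Rps20 to 0.11 for Rps27rt. The smallest adjusted p among the members was 0.433, for Rplp2 (limma).

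Without WT 3 the differences shrank to near 0. They were below 0 for 60 members and above 0 for 22, against 58% of genes tested below 0. The median was −0.04 over the members and −0.03 over all genes tested. Scaling each library to the same total turned the direction, with 77 of 82 members above 0, against 69.1% of genes tested, and a median of 0.09, beside 0.08 over all genes tested. The difference was smaller than 0.2 in size for 80 of 82 members, 97.6%, against 67.5% of genes tested, and its 95% interval lay within 0.5 of 0 for 81 members, against 58.8% of genes tested. The exceptions were Rplp2 and Rps27rt in the first count and Rps27rt, a copy with a low level, in the second. The median standard error was 0.0857 over the members and 0.123 over all genes tested. Again 0 members passed an adjusted p under 0.05 (limma), and 1 had an unadjusted p under 0.05, Rplp2, against a background of 13.7%, with 5.67% lower and 8.01% higher in the libraries labelled KO.

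**Figure D2:**
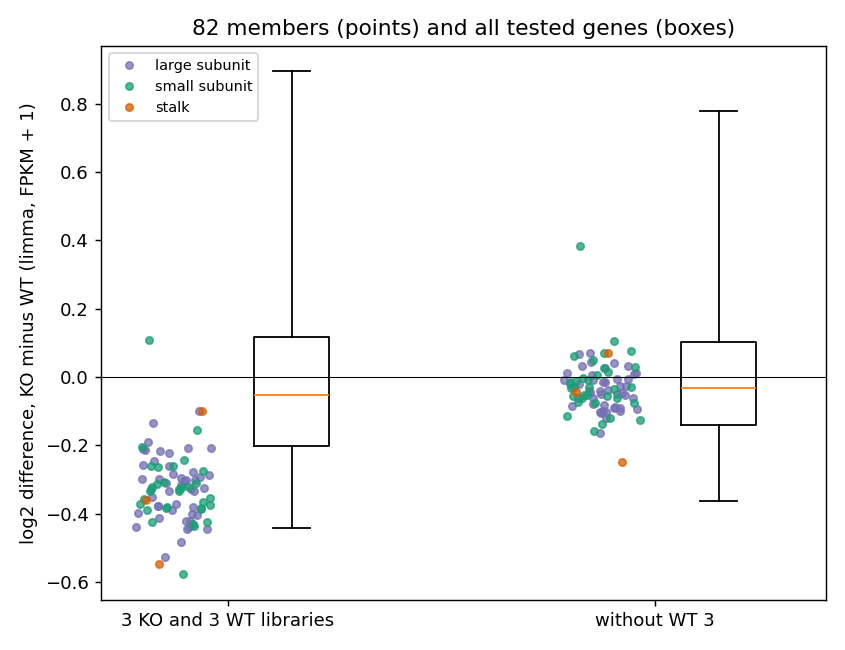
Log2 difference, KO minus WT, from limma on log2(FPKM + 1), for the 82 members (points, coloured by subunit) and all 12539 tested genes (box: median and quartiles; whiskers: 5th and 95th percentiles), with all 6 libraries and without WT 3. The members' median is −0.33 with WT 3 and −0.04 without it.

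Every library labelled KO lay below every WT library for 17 of 82 members, 20.7%, against a background of 12.2%, and above every WT library for 0 members, against 10.1%. Without WT 3 the same counts were 17 members below, again 20.7%, against 17.9%, and 2 above, 2.44%, against 14.1%. The members below were the same in both counts, since each was highest in WT 3. The 2 members above WT 1 and WT 2 were Rplp0 and Rpl13.

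Some members carry a TOP-like run at or near the start that RefSeq annotates. The windows below run from 15 bases before that start to 15 bases after it (GRCm38.p6), and capitals mark the longest run of C and T. In Rpl4 and Rplp0 the marked run lies wholly before the start that RefSeq annotates. GENCODE, used here for gene positions, starts Rpl4 at 64173375, inside the marked run, and Rplp0 at 115559467, after it. Whether the Rpl4 run is part of the mRNA thus depends on the annotation. They are shown for the stalk gene with the smallest p, for Rplp0 and Rps6, and for members near the low end (Rpl4 and Rpl7a) and the high end (Rps27 and Rpl27a) of the WT 3 ratio given further on. Rpl4, Rpl7a and Rpl27a were chosen after their values were seen.
Rplp2, chr7:141447636-141447665, plus strand: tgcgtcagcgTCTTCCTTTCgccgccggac
Rplp0, chr5:115559452-115559481, plus strand: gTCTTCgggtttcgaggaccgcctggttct
Rps6, chr4:86857353-86857382, minus strand: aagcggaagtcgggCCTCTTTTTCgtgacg
Rpl4, chr9:64173372-64173401, plus strand: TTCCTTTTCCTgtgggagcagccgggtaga
Rpl7a, chr2:26910792-26910821, plus strand: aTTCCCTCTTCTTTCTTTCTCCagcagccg
Rps27, chr3:90213634-90213663, minus strand: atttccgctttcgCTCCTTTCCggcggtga
Rpl27a, chr7:109519180-109519209, plus strand: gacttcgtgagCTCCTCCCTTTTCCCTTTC

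A promoter was found for 65 of the 85 members, and a run of at least 8 pyrimidines lay in this window in 25 of the 65, 38.5%, against 11.9% of 27025 RefSeq genes. The letters CTTTCC lay on the gene strand within 50 bases of the start in 21 members, 32.3%, against 5.43% of genes. CCGGAAGT, a core that ETS-family factors bind, lay on either strand between 250 bases before and 50 after the start in 12 members, 18.5%, against 4.31%. AAGATGGC, the core of the YY1 motif, lay on either strand of the same window in 6 members, 9.23%, against 3.19%. TATAAA lay on the gene strand in the 50 bases before the start in 1 member, 1.54%, against 3.15%. These counts describe letters in fixed windows, and runs of C and T can overlap CTTTCC. Rpl7a, with a long run, and Rplp0, with a short one, both stood near the low end of the WT 3 ratio, and Rpl27a, with a long run, near the high end. Whether run length goes with that ratio over the members was not tested.

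Among small subunit genes, the highest levels were those of Rps29 and Rps27, zinc-binding proteins of the subunit's head and platform. Rps29 had 1399, 1448 and 1211 FPKM across KO 1 to KO 3, against 1352, 1290 and 2339 FPKM across WT 1 to WT 3. Rps27 had 1009, 1003 and 818 FPKM across KO 1 to KO 3, against 904, 894 and 2480 FPKM across WT 1 to WT 3. For both genes KO 1 and KO 2 lay above WT 1 and WT 2, KO 3 lay below them, and WT 3 stood far above every other library. The fitted difference of Rps29 was −0.24 with WT 3 and 0.03 without it, with a 95% interval of −0.26 to 0.32. That of Rps27 was −0.43 with WT 3 and 0.06 without it, with an interval of −0.25 to 0.37.

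Rps6, the small subunit protein that S6 kinases phosphorylate downstream of mTORC1, had 164, 163 and 161 FPKM across KO 1 to KO 3, against 169, 187 and 296 FPKM across WT 1 to WT 3. The groups did not overlap, but the gap between KO 1 and WT 1 was a few FPKM. The difference was −0.13 ± 0.075 without WT 3 (SE, adjusted p = 0.501 in limma) and −0.37 with it. Rpsa, the laminin-receptor homologue that binds the small subunit, had 250, 247 and 250 FPKM across KO 1 to KO 3, against 278, 261 and 516 FPKM across WT 1 to WT 3. Here too every library labelled KO lay below every WT library, and the difference was −0.11 ± 0.071 without WT 3 (SE, adjusted p = 0.523 in limma).

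Rps20, which sits on the head of the small subunit, had the most negative difference with all libraries. Its level was 53.1, 46.1 and 48.4 FPKM across KO 1 to KO 3, against 54.3, 55.7 and 133 FPKM across WT 1 to WT 3. KO 1 and WT 1 were close, and the difference was −0.58 ± 0.34 with WT 3 (SE, adjusted p = 0.496 in limma) and −0.16 ± 0.084 without it (adjusted p = 0.455 in limma). GENCODE gives Rps20 a transcript of 3706 nt for a coding length of 357 nt, and FPKM divides by length, so its level beside other members depends on the annotated length.

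Rps3, which lines the mRNA entry channel, had 345, 301 and 333 FPKM across KO 1 to KO 3, against 327, 351 and 590 FPKM across WT 1 to WT 3. Rps19, which is needed to mature the small subunit and is often mutated in Diamond-Blackfan anaemia in humans, had 474, 445 and 489 FPKM across KO 1 to KO 3, against 496, 450 and 926 FPKM across WT 1 to WT 3. Rps27a, translated as a fusion to ubiquitin, had 344, 330 and 330 FPKM across KO 1 to KO 3, against 345, 349 and 608 FPKM across WT 1 to WT 3. The groups overlapped for Rps3 and Rps19. For Rps27a they did not, although KO 1 and WT 1 were all but equal. Without WT 3 the 3 differences lay between −0.05 and −0.01, and with it between −0.33 and −0.32.

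Rps4x, the X-linked copy of a small subunit protein, had 516, 502 and 455 FPKM across KO 1 to KO 3, against 503, 503 and 893 FPKM across WT 1 to WT 3. Rps15a, whose annotated transcript of 5179 nt is the longest among the members for a coding length of 390 nt, had 216, 226 and 205 FPKM across KO 1 to KO 3, against 213, 217 and 424 FPKM across WT 1 to WT 3. Both genes overlapped between the groups, with WT 3 apart. Without WT 3 their differences were −0.04 and 0.005.

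Over the 33 small subunit genes the median difference was −0.33 with WT 3 and −0.03 without it. Without WT 3, 23 were below 0 and 10 above, and 0 had an unadjusted p under 0.05. After Rps27rt, the highest difference without WT 3 was 0.11 for Rps21, named after its values were seen, which had 739, 609 and 723 FPKM across KO 1 to KO 3, against 644, 634 and 1574 FPKM across WT 1 to WT 3. KO 2 lay below WT 1 and WT 2 and the other 2 libraries labelled KO above them.

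Among large subunit genes, Rpl41, a very short basic peptide at the interface of the subunits, had 890, 946 and 818 FPKM across KO 1 to KO 3, against 924, 831 and 1781 FPKM across WT 1 to WT 3. Rpl10, which is added late and opens the large subunit for joining, had 814, 731 and 741 FPKM across KO 1 to KO 3, against 804, 836 and 1221 FPKM across WT 1 to WT 3. For both genes the libraries labelled KO overlapped WT 1 and WT 2. Without WT 3 the difference was 0.01 for Rpl41, with an interval of −0.25 to 0.28, and −0.11 for Rpl10, with an interval of −0.33 to 0.12.

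Rpl5 and Rpl11 bind 5S rRNA and, outside the ribosome, the p53 regulator MDM2. Rpl5 had 151, 145 and 132 FPKM across KO 1 to KO 3, against 138, 140 and 198 FPKM across WT 1 to WT 3. Rpl11 had 295, 270 and 287 FPKM across KO 1 to KO 3, against 305, 302 and 578 FPKM across WT 1 to WT 3. Rpl5 overlapped between the groups and Rpl11 did not. The difference of Rpl5 was 0.03 ± 0.084 without WT 3 and that of Rpl11 −0.10 ± 0.076 (SE, adjusted p = 0.894 and 0.625 in limma).

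Rpl13a, a large subunit protein also known from interferon-induced silencing of mRNAs, had 650, 677 and 582 FPKM across KO 1 to KO 3, against 638, 646 and 1244 FPKM across WT 1 to WT 3. Rpl13 had 319, 319 and 326 FPKM across KO 1 to KO 3, against 300, 313 and 547 FPKM across WT 1 to WT 3. Rpl38, whose loss alters the patterning of the mouse axial skeleton, had 424, 357 and 426 FPKM across KO 1 to KO 3, against 405, 393 and 764 FPKM across WT 1 to WT 3. Rpl13 lay above WT 1 and WT 2 in every library labelled KO and below WT 3, and the other genes overlapped. Without WT 3 the difference was 0.07 ± 0.070 for Rpl13 (SE, adjusted p = 0.709 in limma), −0.02 for Rpl13a and 0.008 for Rpl38.

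Over the 46 large subunit genes the median difference was −0.31 with WT 3 and −0.04 without it. Without WT 3, 35 were below 0 and 11 above, all 46 were smaller than 0.2 in size, and 0 had an unadjusted p under 0.05.

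The stalk, built of Rplp0 with dimers of Rplp1 and Rplp2, draws elongation factors to the ribosome. Rplp1 had the highest level of all members, at 1471, 1457 and 1396 FPKM across KO 1 to KO 3, against 1457, 1516 and 2870 FPKM across WT 1 to WT 3. Rplp2 had 462, 406 and 442 FPKM across KO 1 to KO 3, against 502, 534 and 966 FPKM across WT 1 to WT 3. Rplp0 had 508, 501 and 502 FPKM across KO 1 to KO 3, against 485, 475 and 683 FPKM across WT 1 to WT 3.

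Rplp2 lay below all 3 WT libraries in every library labelled KO, Rplp0 lay above WT 1 and WT 2 but below WT 3, and Rplp1 overlapped. The difference of Rplp2 was −0.55 ± 0.27 with WT 3 (SE, adjusted p = 0.433 in limma) and −0.25 ± 0.091 without it (adjusted p = 0.349 in limma), with an interval of −0.48 to −0.02. Rplp0 stood at −0.10 with WT 3 and 0.07 ± 0.072 without it, and Rplp1 at −0.36 with WT 3 and −0.04 ± 0.091 without it. None of the 3 stalk genes passed the threshold, and whether they differ from each other was not tested.

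**Figure D3:**
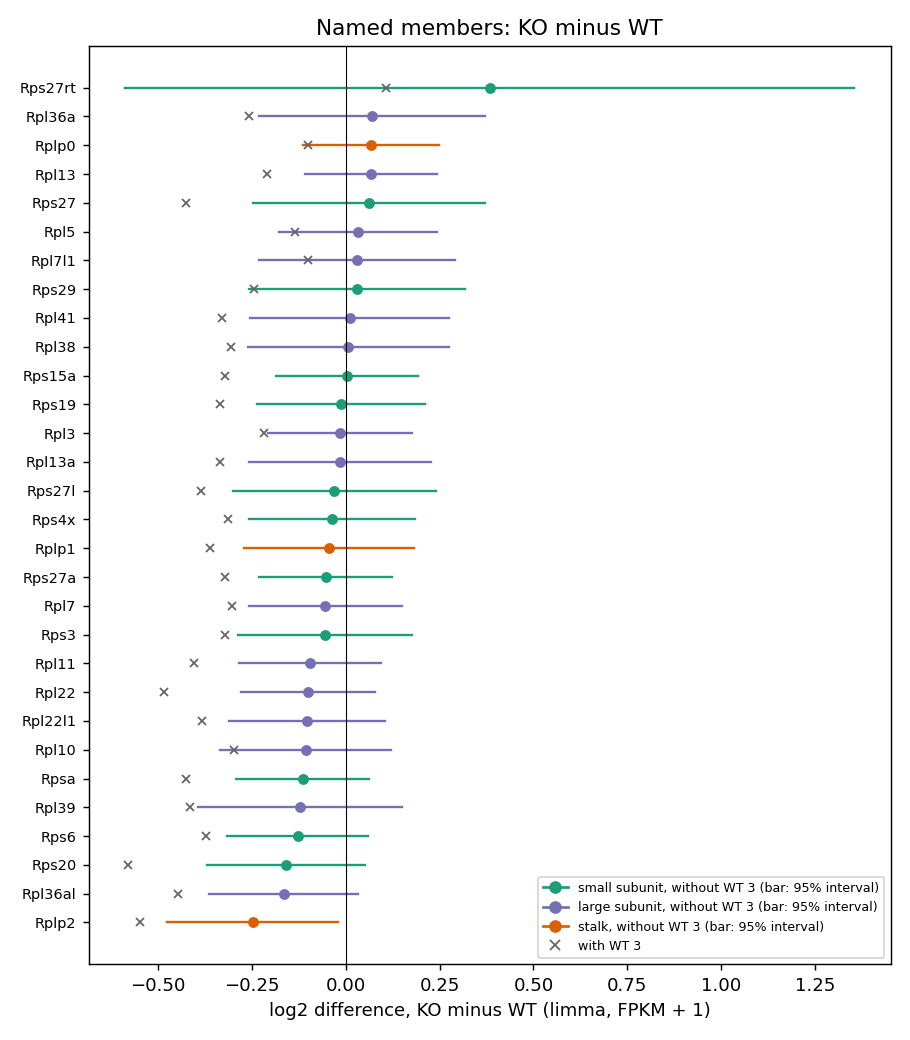
Log2 difference, KO minus WT, from limma on log2(FPKM + 1), for the named members above the expression filter: points and bars give the estimate and 95% interval without WT 3, crosses the estimate with WT 3. Rplp2 is the member whose interval without WT 3, −0.48 to −0.02, leaves out 0, and Rps27rt has the widest.

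Several members have a close paralog, and reads shared between near-identical copies make their split uncertain. Rpl22l1 substitutes for Rpl22, and in mouse cells Rpl22 holds Rpl22l1 down. The level of Rpl22l1 was 73.9%, 73.2% and 72.9% of that of Rpl22 across KO 1 to KO 3, against 81.9%, 66.0% and 59.3% across WT 1 to WT 3. The libraries labelled KO lay inside the WT range. Rpl36al, an intron-poor copy of Rpl36a, stood at 36.9%, 35.4% and 46.6% of Rpl36a across KO 1 to KO 3, against 46.7%, 45.9% and 42.1% across WT 1 to WT 3, and KO 3 overlapped the WT libraries.

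Rpl36al itself had 110, 104 and 112 FPKM across KO 1 to KO 3, against 128, 116 and 220 FPKM across WT 1 to WT 3, with no overlap. Its difference was −0.45 ± 0.24 with WT 3 (SE, adjusted p = 0.469 in limma) and −0.16 ± 0.079 without it (adjusted p = 0.420 in limma). Rpl36a had 299, 296 and 241 FPKM across KO 1 to KO 3, against 275, 253 and 523 FPKM across WT 1 to WT 3, and overlapped. Rpl22 had 171, 169 and 172 FPKM across KO 1 to KO 3, against 176, 190 and 407 FPKM across WT 1 to WT 3. Rpl22l1 had 127, 124 and 125 FPKM across KO 1 to KO 3, against 144, 126 and 241 FPKM across WT 1 to WT 3. Rpl22 lay lower in every library labelled KO, and Rpl22l1 in KO 1 was above WT 2. Without WT 3 both had a difference of −0.10.

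Rps27l, a copy of Rps27 that p53 induces, stood at 12.5%, 11.9% and 17.0% of Rps27 across KO 1 to KO 3, against 15.7%, 13.5% and 11.1% across WT 1 to WT 3, and the groups overlapped. Rpl7l1, which acts in large subunit assembly, stood at 5.94%, 6.46% and 6.21% of Rpl7 across KO 1 to KO 3, against 6.37%, 5.35% and 4.64% across WT 1 to WT 3, again with overlap. Rpl39, which lines the exit tunnel, had 377, 314 and 369 FPKM across KO 1 to KO 3, against 397, 370 and 705 FPKM across WT 1 to WT 3. Its paralog Rpl39l, known from male germ cells, had 0.105, 0.384 and 0.176 FPKM across KO 1 to KO 3, against 0.883, 0.11 and 0 FPKM across WT 1 to WT 3. Rpl10l, another germ-cell paralog, was listed at 0, 0.11 and 0 FPKM across KO 1 to KO 3, against 0.339, 0 and 0 FPKM across WT 1 to WT 3.

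Rpl3, at the peptidyl transferase centre, had 282, 275 and 259 FPKM across KO 1 to KO 3, against 268, 281 and 420 FPKM across WT 1 to WT 3, and overlapped. Rpl3l, which replaces it in striated muscle, was listed at 0, 0 and 0.066 FPKM across KO 1 to KO 3, against 0, 0 and 0.274 FPKM across WT 1 to WT 3. The germ-cell and muscle paralogs thus stood near 0 in all 6 libraries.

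Rps27rt is a copy of Rps27 on chromosome 9. It shares sequence with Rps27 around the annotated start, and the windows are given again with the shared stretch in capitals.
Rps27, chr3:90213634-90213663, minus strand: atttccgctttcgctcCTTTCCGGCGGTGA
Rps27rt, chr9:114982725-114982754, minus strand: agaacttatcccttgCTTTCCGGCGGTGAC
Within the 300-base promoter windows the shared stretch runs to 29 bases, on past these printed windows. Rps27rt had 6.70, 14.2 and 5.10 FPKM across KO 1 to KO 3, against 6.33, 5.40 and 11.2 FPKM across WT 1 to WT 3. KO 2 was its highest library and WT 3 the next. The difference was 0.11 ± 0.38 with WT 3 and 0.38 ± 0.39 without it (SE, adjusted p = 0.911 and 0.705 in limma), and it turned to −0.27 without KO 2 and −0.08 without WT 2. Whether its reads come from Rps27 cannot be told apart in these values.

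The largest contrast among members was between libraries of the WT group. WT 3 was the highest of the 6 libraries for 81 of 82 members, against a background of 40.3% of genes tested. WT 3 over the mean of WT 1 and WT 2 had a median of 1.85 over the members and 1.04 over all genes tested, and ran from 1.33 for Rpl7l1 to 2.76 for Rps27. It was above 1.5 for 75 members, 91.5%, against 14.0% of genes tested, and above 2 for 18 members, 22.0%, against 2.64%. With each library scaled to the same total the median ratio was 1.36 over the members and 0.768 over all genes tested. The members' median was above 1 on both scales, and that of all genes tested was below 1 on the second.

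The ratio was larger for members with shorter coding sequences. The members with the largest ratios after Rps27, named after their values were seen, were Rpl36 at 2.73, Rps28 at 2.53 and Rps21 at 2.46, with coding lengths of 315, 207 and 249 nt. The smallest after Rpl7l1 were Rpl5 at 1.42, Rplp0 at 1.42 and Rpl4 at 1.45, with coding lengths of 891, 951 and 1257 nt. Across the members Spearman's rho between the log2 ratio and coding length was −0.68, and with transcript length −0.43 (82 genes from the same libraries, a description without a test). Across all 12539 genes tested the same values were −0.41 and −0.46.

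**Figure D4:**
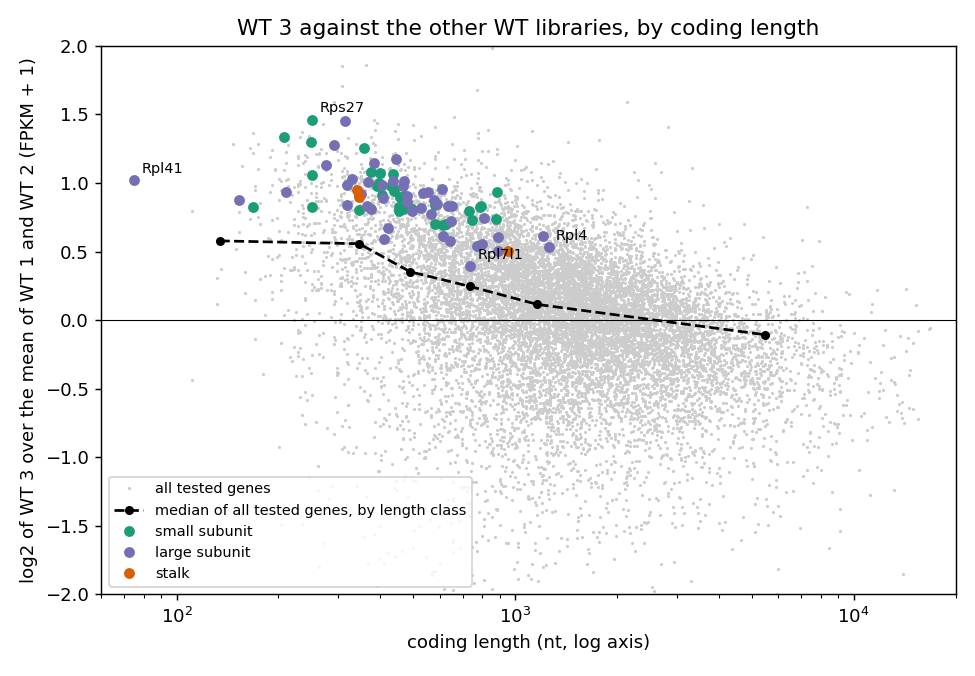
Log2 of WT 3 over the mean of WT 1 and WT 2 (FPKM + 1) against coding length (log axis) for all tested genes (grey, 85 lie outside the axes), the median of all tested genes in each length class (dashed line) and the members, coloured by subunit. Members lie above the dashed line at every coding length they cover, with medians of 1.06 under 300 nt and 0.53 from 900 to 1500 nt.

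In classes of coding length, the members' median log2 ratio was 1.06 under 300 nt (11 members), 0.98 from 300 to 400 nt (18 members), 0.89 from 400 to 600 nt (30 members), 0.73 from 600 to 900 nt (20 members) and 0.53 from 900 to 1500 nt (3 members). Over all genes tested in the same classes it was 0.58, 0.56, 0.35, 0.25 and 0.11. In classes of transcript length the members were closer to other short genes, with 0.98 over 11 members against 0.94 over 75 genes under 500 nt, and 0.90 over 27 members against 0.73 over 303 genes from 500 to 750 nt. From 1500 to 2500 nt the medians were 0.80 over 7 members and 0.21 over 3105 genes. After a correction for transcript length and GC content, WT 3 minus the mean of WT 1 and WT 2 had a median of 0.21 on the log2 scale over the members, and was above 0 for 75 of 82, 91.5%, against 50.3% of genes tested. The largest corrected values were 1.25 for Rps20 and 1.08 for Rps15a, whose annotated transcripts are the longest. Under the same correction, KO minus WT with all 6 libraries had a median of −0.06 over the members and −0.003 over all genes tested. It was below 0 for 64 of 82 members, 78.0%, against 50.8% of genes tested. Whether RNA quality or library preparation had a part in the length trend was not tested.

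Without WT 3, most members varied less between libraries than the median gene tested. Their coefficient of variation over the 5 libraries had a median of 5.12%, against 11.5% over all genes tested, and was under 10% for 78 of 82 members, 95.1%, against 42.1% of genes tested. The 4 exceptions were Rps16, just above 10%, Rplp2, at 10.7%, Rps28, at 10.8%, and Rps27rt, at 50.01%, of which Rps16 and Rps28 were named after their values were seen. With WT 3 the median was 31.6% over the members and 17.4% over all genes tested. High levels and low counting error go together, and depth is unknown, so this is not a comparison at equal level.

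The members followed each other closely over the 6 libraries, and less closely without WT 3. Pearson's r between each member and the median of the others on the log2 scale had a median of 0.99 over 6 libraries and was above 0.9 for 80 of 82 members. Over the 5 libraries without WT 3 the median r was 0.53, with 7 members above 0.9 and 12 below 0. The lowest was −0.60, for Rpl13. These values share libraries and their scaling and are given without a test.

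The other genes of the translation apparatus were counted in the same fit. Fau and Rack1 encode ribosomal proteins whose names fall outside the symbols used. Fau had 443, 422 and 427 FPKM across KO 1 to KO 3, against 416, 416 and 849 FPKM across WT 1 to WT 3. Rack1 had 232, 247 and 229 FPKM across KO 1 to KO 3, against 234, 240 and 338 FPKM across WT 1 to WT 3. Both were highest in WT 3, as most members were. The difference was −0.29 for Fau and −0.18 for Rack1 with WT 3, and 0.05 and −0.007 without it (adjusted p = 0.799 and 0.976 in limma).

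Of 13 elongation factors and other TOP genes, 0 passed an adjusted p under 0.05 (limma), 0 had an unadjusted p under 0.05, and their median difference was −0.24 with WT 3 and −0.05 without it. Pabpc1, the poly(A)-binding protein, had 161, 174 and 164 FPKM across KO 1 to KO 3, against 182, 195 and 178 FPKM across WT 1 to WT 3. It was not highest in WT 3, and its difference was −0.15 with WT 3 and −0.18 without it. Eef1g and Eef1d, which recharge elongation factor 1A, had differences of −0.25 and −0.27 with WT 3 and of −0.12 and −0.07 without it. Hnrnpa1, an RNA-binding protein whose mRNA has a TOP tract, had −0.17 with WT 3 and −0.12 without it.

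Of 33 initiation factors, 0 passed the adjusted threshold (limma) and 3 had an unadjusted p under 0.05, all lower in the libraries labelled KO, beside 4.43% of genes tested in that direction. Without WT 3 the count was 4 lower and 0 higher, beside 5.67% and 8.01%, and with the length and GC correction 3 lower and 0 higher. The median difference of the initiation factors was −0.19 with WT 3 and −0.12 without it. Eif2s1, the alpha subunit of eIF2 that stress kinases phosphorylate, had 12.4, 12.1 and 13.8 FPKM across KO 1 to KO 3, against 16.6, 16.7 and 25.1 FPKM across WT 1 to WT 3. Eif2s3x, its gamma subunit, had 10.3, 10.7 and 8.62 FPKM across KO 1 to KO 3, against 13.3, 12.9 and 17.4 FPKM across WT 1 to WT 3. Neither gene overlapped between the groups, with or without WT 3. The difference was −0.55 ± 0.17 for Eif2s1 and −0.51 ± 0.15 for Eif2s3x with WT 3 (SE, adjusted p = 0.241 and 0.223 in limma), and −0.36 and −0.39 without it. With sample weights both passed the threshold, at −0.40 and −0.37 (adjusted p = 0.0441 and 0.0473 in limma), as did 970 of 12539 genes tested, 7.74%. Eif3j1, which helps to place the start codon, and Eif2b5, which recycles eIF2, had differences of −0.35 and −0.29 with WT 3 and of −0.25 and −0.17 without it.

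Of 48 ribosome biogenesis factors, 0 passed the adjusted threshold (limma) and 3 had an unadjusted p under 0.05, all lower in the libraries labelled KO, beside 4.43% of genes tested in that direction. The count was 1 lower without WT 3, and 2 lower and 2 higher with the length and GC correction. The median difference was −0.17 with WT 3 and −0.05 without it. Sbds, which releases eIF6 from the new large subunit, had 47.5, 46.9 and 47.8 FPKM across KO 1 to KO 3, against 53.9, 59.0 and 73.2 FPKM across WT 1 to WT 3, with no overlap, and a difference of −0.37 with WT 3 and −0.25 without it. Nip7 and Nmd3, which act in large subunit assembly and export, had differences of −0.41 and −0.43 with WT 3 and of −0.28 and −0.40 without it, and Rpf2, which brings in 5S rRNA with Rpl5 and Rpl11, had −0.33 and −0.21. Nmd3 passed the threshold with sample weights, at −0.53 (adjusted p = 0.0459 in limma).

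Of 17 tested translation control genes, 0 passed the adjusted threshold (limma) and 2 had an unadjusted p under 0.05, both lower in the libraries labelled KO, beside 4.43% of genes tested in that direction. Without WT 3 the count was 2 lower and 1 higher, beside 5.67% and 8.01%. The median difference was −0.06 with WT 3 and −0.09 without it. Eif4ebp1, the mTORC1 target that blocks eIF4E, had 114, 106 and 140 FPKM across KO 1 to KO 3, against 151, 162 and 287 FPKM across WT 1 to WT 3. Mknk2, a kinase of eIF4E, had 253, 259 and 255 FPKM across KO 1 to KO 3, against 297, 342 and 316 FPKM across WT 1 to WT 3. Neither gene overlapped between the groups. The difference was −0.68 ± 0.26 for Eif4ebp1 and −0.31 ± 0.12 for Mknk2 (SE, adjusted p = 0.328 and 0.336 in limma), and −0.39 and −0.32 without WT 3. Rheb, the activator of mTORC1, and Rps6kb2, a kinase of Rps6, had differences of −0.38 and −0.25 with WT 3 and of −0.19 for both without it. The adipocyte marker sums were also lower in the libraries labelled KO than in each WT library, and were highest in WT 3, where Mknk2 was not. Cfd, Car3 and Fabp4 weigh most in these sums. In the fit with WT 3, 16 of the 18 adipocyte markers had a difference below 0 and 2 above 0. The part of these markers in the values was not tested.

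The 78 mitochondrial ribosomal protein genes, which serve the separate ribosome inside mitochondria, were also raised in WT 3, which was the highest library for 77 of them. Their median difference was −0.37 with WT 3 and −0.10 without it, beside −0.33 and −0.04 for the cytosolic members. Without WT 3, 67 of 78 were below 0, against 60 of 82 cytosolic members and 58% of genes tested, and 0 passed the adjusted threshold in either list (limma). At an unadjusted p under 0.05, 8 of the 78 were lower and 0 higher with WT 3, beside 4.43% and 9.13% of genes tested. Without WT 3 these counts were 10 lower and 2 higher, beside 5.67% and 8.01%. The cytosolic members had 0 with WT 3 and 1, lower, without it. Whether the 2 lists differ was not tested.

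**Figure D5:**
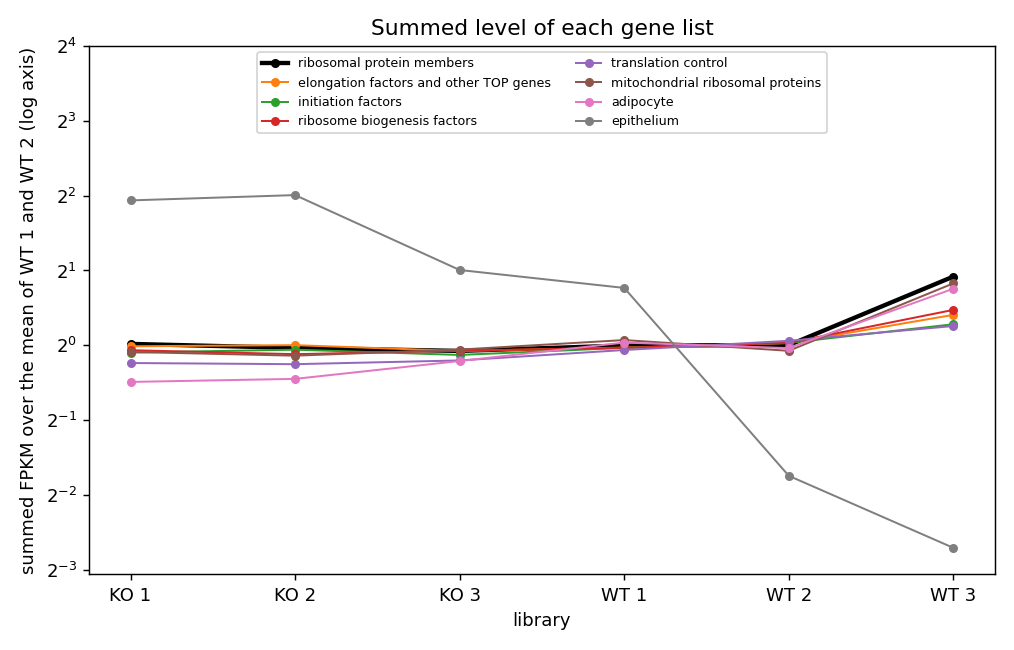
Summed FPKM of each gene list over the mean of its sums in WT 1 and WT 2 (log axis), for the 3 libraries labelled KO and the 3 WT libraries; epithelium and adipocyte are marker lists. The ribosomal protein members stand at 1.01, 0.976 and 0.949 in KO 1, KO 2 and KO 3 and at 1.89 in WT 3, and epithelium at 3.83, 4.02 and 2.01 in the libraries labelled KO and 0.153 in WT 3.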

How the data were processed

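RNA-seq of 3 libraries labelled ZFP251 KO and 3 WT libraries was analysed. Tools named by the submitters' processing notes are STAR (2.5.4), Cufflinks and Cuffdiff (2.2.1), with the build mm10. The deposited values were read as FPKM, inferred from those tools, since no header names the unit. How the authors scaled depth is not given in the sources used here. If scaled by the mapped total, abundant genes move the others. The table held 0 other columns of per-sample values.

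Of 21853 rows, 24 repeated a symbol and gave way to the row of highest mean. Genes averaging 1 FPKM or more, 12539 in all, entered a limma fit (version 3.58.1, R 4.3.3) of log2(FPKM + 1), with group as the only term, a mean-variance trend and Benjamini-Hochberg adjustment over all genes, two-sided. This scale understates changes of low genes. The fit was tested on simulated data. Zfp251 also had an exact permutation test. Fits without WT 3 leave 2 WT libraries and pool the spread. All differences are KO minus WT.

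Low FPKM values step with the worth of 1 fragment. Depths relative to WT 1, read from the commonest step, were 0.824, 0.651 and 0.946 for KO 1, KO 2 and KO 3 and 0.79 for WT 2. That step held only 19.8%, 15.1% and 20.8% of the genes used for KO 1, KO 2 and KO 3 and 21.8% for WT 2, so these depths are rough. In WT 3 the commonest step held 11.2% of the genes used and gave 1.03. Without total depth, counting intervals cannot be given.

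Transcript lengths, their GC content and gene positions are those of GENCODE vM21 (GRCm38, the assembly of mm10), as the median over transcripts with the row's RefSeq accessions, found for all 82 tested members. Promoter sequences are from RefSeq, GRCm38.p6.

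The members and lists were chosen with earlier results of these data known. Named members were the 5 with the highest mean, those with the smallest p in each direction (up to 4 with all libraries, up to 2 without WT 3), those with close paralogs, the stalk genes and Rpsa, 8 well-known members (Rps6, Rps3, Rps19, Rpl5, Rpl11, Rpl13a, Rps27a, Rpl41), the 2 shortest and 2 longest transcripts, and those below the filter. From each related list up to 4 genes with the smallest p were named. Not every gene so chosen is reported here. Alternatives tried were pseudocounts of 0.1 and 0.5, no filter, a filter at 5 FPKM, quantile normalization, median-ratio scaling, equal library totals, no trend, sample weights, a length and GC correction, the replicate number as a block, and each library left out. A length and GC correction and equal library totals, both without WT 3, were added after seeing the data.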

Additional observations from a re-analysis of the deposited data

How the results depend on the processing

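No member passed the adjusted threshold under any alternative (limma). The median difference of the members stayed below 0 in every alternative but 2, at 0.086 with equal library totals without WT 3 and 0.00310 with the length and GC correction without WT 3. It was −0.014 with quantile normalization and −0.058 with equal library totals, which moved the median of all genes tested to 0.19, and between −0.48 and −0.037 with each library left out. Members with an unadjusted p under 0.05 numbered 1 with the length and GC correction, with or without the replicate block, 1 with sample weights, 2 with equal library totals without WT 3, and 0 to 2 with each library left out. Over all genes, 970 passed with sample weights, among them Eif2s1, Eif2s3x and Nmd3, and 0 to 482 with each library left out, 482 of them without WT 1. Zfp251 stood at 0.64 with sample weights (adjusted p = 0.0367) and between 0.65 and 0.78 with each library left out, where it passed without WT 1 (0.78, adjusted p = 0.0409 in limma). Same-numbered libraries deviated from their group means with r of 0.23, −0.20 and 0.22, and differently numbered ones with r from −0.48 to 0.43. Deviations within a group depend on each other, so whether the replicate numbers pair the libraries cannot be told from these values. With the replicate block 0 members passed. The cause of these changes was not tested.

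The sign of some named genes turned. With the length and GC correction, with or without the block, the values were 0.11 for Dctn6, 0.011 for Rpl22l1, 0.15 for Rpl36a, 0.084 for Rpl38, 0.020 for Rpl5, 0.042 for Rplp0, 0.013 for Rps27, 0.013 for Rps27l and 0.14 for Rps29. With quantile normalization they were 0.00913 for Eef1g, 0.024 for Fau, 0.022 for Hnrnpa1, 0.084 for Pabpc1, 0.10 for Rack1, 0.054 for Rpl10, 0.091 for Rpl13, 0.089 for Rpl3, 0.066 for Rpl36a, 0.015 for Rpl38, 0.027 for Rpl41, 0.12 for Rpl5, 0.00243 for Rpl7, 0.22 for Rplp0, 0.12 for Rplp1, 0.14 for Rps29 and 0.022 for Rps4x. With sample weights they were 0.032 for Fau, 0.061 for Rpl13, 0.017 for Rpl3, 0.054 for Rpl36a, 0.067 for Rpl5, 0.046 for Rplp0, 0.070 for Rps27 and 0.017 for Rps29. With equal library totals they were 0.13 for Dctn6, 0.000817 for Eef1d, 0.017 for Eef1g, 0.053 for Elp5, 0.095 for Hnrnpa1, 0.11 for Pabpc1, 0.092 for Rack1, 0.059 for Rpl13, 0.052 for Rpl3, 0.011 for Rpl36a, 0.13 for Rpl5, 0.16 for Rpl7l1, 0.17 for Rplp0 and 0.026 for Rps29. With each library left out, the ranges were −0.47 to 0.049 for Fau, −0.36 to 0.068 for Rpl13, −0.45 to 0.070 for Rpl36a, −0.47 to 0.0077 for Rpl38, −0.54 to 0.011 for Rpl41, −0.22 to 0.032 for Rpl5, −0.22 to 0.031 for Rpl7l1, −0.19 to 0.069 for Rplp0, −0.49 to 0.0048 for Rps15a, −0.67 to 0.062 for Rps27, −0.27 to 0.38 for Rps27rt and −0.40 to 0.030 for Rps29. Apart from Rps27rt, these turned without WT 3.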

Other observations

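The genes outside the ribosomal protein genes whose level followed their median most closely over the 6 libraries were Lamtor5, Chmp2a, Atp2a1, Dctn6, Mrpl14 and Elp5, with Pearson's r of 0.998 or more on the log2 scale (n = 6 libraries, a description without a test). Of 12457 other genes, 65 had an r above 0.99. Lamtor5, a subunit of the Ragulator complex that holds mTORC1 at the lysosome, had 53.4, 52.3 and 50.1 FPKM across KO 1 to KO 3, against 54.2, 52.8 and 97.9 FPKM across WT 1 to WT 3. Atp2a1, the calcium pump of fast skeletal muscle, had 0.278, 0.053 and 0.089 FPKM across KO 1 to KO 3, against 0.231, 0.126 and 7.32 FPKM across WT 1 to WT 3. Each of the 6 genes had its highest value in WT 3. WT 3 over the mean of WT 1 and WT 2 ran from 1.28 for Dctn6 to 41.0 for Atp2a1. The median of that ratio over the members was 1.85. Pearson's r does not measure the size of a rise, and the members' median was raised mainly in WT 3. For these genes r was not computed without WT 3.

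Of the 6 copies left out by their symbols, 3 had their highest value in KO 2, as Rps27rt did, against 13.7% of genes tested. Those 3 of the 6 were also the ones with a mean of at least 1 FPKM. Of the other 3, Rps12-ps3 was listed at 0 in KO 2 and had up to 0.612 FPKM elsewhere, and Rpl36-ps4 and Rpl9-ps1 were listed at 0 in all 6 libraries. Rpl10-ps3 had 0.563, 8.36 and 0.08 FPKM across KO 1 to KO 3, against 0.86, 0.495 and 0.301 FPKM across WT 1 to WT 3. Rpl9-ps6 had 3.34, 10.9 and 3.73 FPKM across KO 1 to KO 3, against 3.17, 2.23 and 6.05 FPKM across WT 1 to WT 3. Rpl36a-ps1 had 1.53, 2.11 and 0.751 FPKM across KO 1 to KO 3, against 0.724, 0 and 2.10 FPKM across WT 1 to WT 3, so KO 2 and WT 3 were all but equal. KO 2 stood at 18.2 times the mean of the other 5 libraries for Rpl10-ps3, at 2.94 times for Rpl9-ps6, at 2.07 times for Rpl36a-ps1 and at 2.05 times for Rps27rt. Of the parents, Rpl10 had 731 FPKM in KO 2 and Rps27 had 1003 FPKM there, each inside the range of the other 5 libraries or below it. These copies were chosen after their values were seen, and reads shared with the parent genes cannot be told apart.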
